A study of Mus musculus with 30 samples.

Results

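Nova1, Nova2, Elavl1, Elavl2, Elavl3 and Elavl4 are the 6 mouse genes that encode the Nova proteins and the Elavl (Hu) proteins. They were taken by name from the deposited expression table, which lists 54393 genes, and from the splicing table, in which 112 of 661327 events belong to them. Levels and splicing were followed in 30 poly(A) RNA-seq libraries, 2 from each of 15 groups, as CGR8 mouse embryonic stem cells (ESC) were turned into embryoid bodies at day 8 (EB8) and plated neurons at 7 days in vitro (DIV7). At each stage the parental wild type (WT) was sampled beside 4 lines edited with CRISPR-Cas9. Puf60_mEx5_HOM is labelled as a homozygous deletion of exon 5 of Puf60, a splicing factor gene. In Puf60_pEx5_HOM exon 5 is constitutive on each of the 2 alleles, and in Puf60_pEx5_HET on 1. Rbm38KO has part of Rbm38, the gene of another RNA-binding protein, deleted. The edited lines are clonal, WT is the parent, and libraries cannot be matched to clones from the labels. The p-values therefore reflect only how far these libraries vary, and that variation may be technical.

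On mm10 the genes lie at chr12:46694517-46818929 (Nova1), chr7:18925888-18965319 (Nova2), chr8:4285382-4325413 (Elavl1), chr4:91250763-91400785 (Elavl2), chr9:22015005-22052023 (Elavl3) and chr4:110203722-110351909 (Elavl4), with Nova2 on the plus strand and the others on the minus strand. Nova1 and Nova2 bind clusters of UCAU-like tetramers (YCAY, where Y is C or U) and regulate alternative exons in neurons. Nova1 protein is known to bind one of its own coding exons and to repress its inclusion. Elavl1 (HuR) is made in nearly all cells, whereas Elavl2, Elavl3 and Elavl4 (HuB, HuC and HuD) are classic neuronal proteins. All 4 Elavl proteins bind U-rich and AU-rich RNA through 3 RNA recognition motifs and act on splicing, RNA stability and translation. The linker before the last of these motifs is where neuronal Elavl isoforms are known to differ.

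Most of the splicing results turn on 2 sets of exons, so their reference sequences are given first, from GENCODE M21 on GRCm38 (mm10), 5′ to 3′ on the coding strand. The Nova1 exon is exon 4 of transcript Nova1-201, 72 nt of coding sequence at chr12:46713498-46713569. Capitals mark the Nova tetramer in DNA letters: TCAT and CCAT, together with the forms that end in C, namely TCAC and CCAC. There were 5 matches on the coding strand, none overlapping another, and 1 on the other strand, which overlaps one of these. Of 1296 annotated coding exons of the same length, 13 (1%) had at least 5 matches on the coding strand, the median was 1, and 67.9% had at least 1.
Nova1 exon 4: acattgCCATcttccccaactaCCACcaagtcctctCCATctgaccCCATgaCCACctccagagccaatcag
The second set is a 39-nt coding exon that Elavl2 (chr4:91254141-91254179), Elavl3 (chr9:22024674-22024712) and Elavl4 (chr4:110209740-110209778) each have as exon 6 (of transcripts Elavl2-201, Elavl3-201 and Elavl4-201). All lie on the minus strand. Capitals mark the 32 of 39 bases that the 3 exons share. Elavl3 and Elavl4 were identical at 35 bases, Elavl2 and Elavl3 at 34, and Elavl2 and Elavl4 at 33. The 3 exons are shown together because their inclusion differed, as the values further on describe.
Elavl2 exon 6: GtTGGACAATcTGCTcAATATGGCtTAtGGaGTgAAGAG
Elavl3 exon 6: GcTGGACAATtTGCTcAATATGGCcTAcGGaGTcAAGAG
Elavl4 exon 6: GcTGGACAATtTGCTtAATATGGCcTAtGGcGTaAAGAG

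Levels were measured in 2 ways. The authors' RPKM, which is scaled to depth and transcript length, is given once per group, without error, and allows genes to be compared per length. For each library, the reads across exon-exon junctions were summed per gene (spliced reads) and scaled to depth as CPM, which allows tests between groups. Depth was 23204150 to 38571969 spliced reads per library. Exon 5 of Puf60, a 51-nt exon, had a percent spliced in (PSI, the share of reads that include the exon) of 20.7 to 44% in the 6 WT libraries and 93.2 to 99% in those labelled Puf60_pEx5_HOM. It was 49.2 to 64.9% in Puf60_pEx5_HET, 22.9 to 48.4% in Rbm38KO and 7.49 to 13%, not 0, in the libraries labelled Puf60_mEx5_HOM. Rbm38 had 0 CPM in all 6 Rbm38KO libraries and 4.98 to 96.2 CPM in the others. The summed level of 5 measured pluripotency markers was 3448 and 3693 CPM in WT ESC and 21 and 28.2 CPM at EB8. The sum of 8 neuron markers was 274 and 295 CPM in WT ESC, 1178 and 1310 CPM at EB8 and 4036 and 4723 CPM at DIV7. Transcripts of astrocyte markers (86.1 to 538 CPM in sum over the 10 DIV7 libraries) and of fibroblast and smooth muscle markers (276 to 4229 CPM) were present at DIV7 too, and microglia and blood markers stayed at or below 0.248 CPM. In these bulk samples, fewer cells of a type and less RNA per cell cannot be told apart.

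The Elavl family changed its composition in WT cells. In ESC, Elavl1 was the most abundant of the 6 genes at 94.4 RPKM, and Elavl2, at 24.3 RPKM, was the only other member above 5 RPKM. Elavl3 stood at 3.94 RPKM, Nova1 at 1.58, Nova2 at 1.44 and Elavl4 at 1.39 in the authors' table. At EB8, 5 members lay close together, from 48.9 RPKM for Elavl2 to 59.4 RPKM for Elavl1, with Nova1 at 52.3, Elavl3 at 57.1 and Elavl4 at 58.3. Nova2 was lower, at 14.2 RPKM. At DIV7 the order was Nova1 (148 RPKM), Elavl2 (126 RPKM), Elavl3 (105 RPKM), Elavl4 (86.8 RPKM), Elavl1 (24.4 RPKM) and Nova2 (18.8 RPKM). The summed RPKM of Elavl2, Elavl3 and Elavl4 was 0.314 times that of Elavl1 in WT ESC, 2.77 times at EB8 and 13 times at DIV7. Nova1 had 1.1 times the RPKM of Nova2 in WT ESC, 3.67 times at EB8 and 7.89 times at DIV7. These values have no replicate error, so neighbours in the order at EB8 cannot be ranked.

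**Figure D1:**
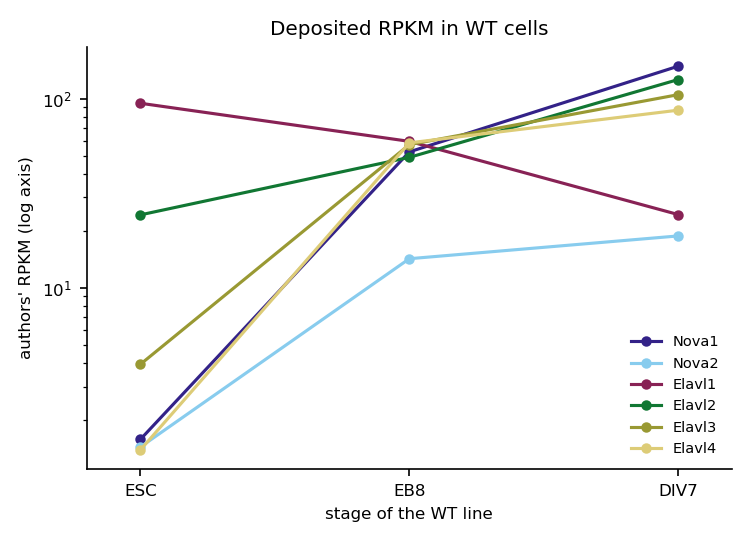
Authors' RPKM (log axis) of the 6 genes in WT cells at the 3 stages, 1 deposited value per point. Elavl1 goes from 94.4 to 24.4 RPKM while the other 5 rise, and 5 genes meet between 48.9 and 59.4 RPKM at EB8.

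From ESC to EB8 in WT, the Nova genes and the neuronal Elavl genes rose. A gene was called when limma's Benjamini-Hochberg adjusted p was under 0.05 and the fitted change on log2(CPM + 1) was at least 2-fold. All 5 were called higher, against a background of 21.7% of the 13938 genes tested that were called higher in this step. Nova1 had 2.14 and 2.26 CPM in the 2 WT ESC libraries, from 63 and 64 reads, and 58.6 and 60 CPM at EB8. Elavl4 had 1.42 and 1.55 CPM in ESC and 46.5 and 50.6 CPM at EB8. The fitted changes were 4.24 ± 0.14 (SE, n = 2 libraries per group) for Nova1 with adjusted p = 5.05e-17 and 4.31 ± 0.17 for Elavl4 with adjusted p = 7.92e-16 (limma). Because 1 CPM was added before the logarithm, both understate the change of genes this low in ESC.

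Elavl3 went from 12.1 and 7.38 CPM to 123 and 136 CPM, a change of 3.64 ± 0.20 (limma, adjusted p = 1.13e-12). Nova2 went from 3.19 and 2.58 CPM to 26.7 CPM in both EB8 libraries, a change of 2.84 ± 0.15 (limma, adjusted p = 1.93e-13). Elavl2, already present in ESC at 15.6 and 16 CPM, reached 37.9 and 40.7 CPM, the smallest rise of the 5 at 1.26 ± 0.12 (limma, adjusted p = 4.38e-09). With junctions next to alternative exons left out (constitutive junctions), the Elavl2 change was 0.98, with adjusted p = 6.8e-07, just under the 2-fold threshold. In all 5 genes the WT libraries of the 2 stages did not overlap, as in 90.5% of all tested genes.

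Elavl1 took the other course. It had 112 and 119 CPM in WT ESC, 86.5 and 82.2 CPM at EB8 and 40.8 and 37.9 CPM at DIV7. The first step was -0.45 ± 0.11 (limma, adjusted p = 0.000972), under 2-fold and not called, and it was 0.04 when libraries were scaled to their total reads, a scaling that moved the median of all genes by 0.42. The second step, -1.08 ± 0.11 (limma, adjusted p = 1.38e-08), was called lower. Of all tested genes, 12.7% were called lower from EB8 to DIV7.

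From EB8 to DIV7, Elavl2 had the largest change of the 6 on the sum of all junctions, from 37.9 and 40.7 CPM to 116 and 144 CPM. Its change of 1.70 ± 0.12 (limma, adjusted p = 5.72e-11) was called, as were 17.6% of tested genes in the upward direction. The other 4 neuronal genes had smaller changes with adjusted p under 0.05 that stayed under 2-fold. These were 0.90 ± 0.14 for Nova1, 0.89 ± 0.20 for Elavl3, 0.76 ± 0.15 for Nova2 and 0.70 ± 0.17 for Elavl4 (limma, adjusted p = 7.69e-06, 0.000491, 0.000144 and 0.000924). For scale, 37.4% of tested genes had an adjusted p under 0.05 and a higher level at DIV7. Libraries of the 2 stages did not overlap for any of the 6 genes in WT, as in 85.3% of all tested genes.

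The Nova1 value needs its splicing beside it. The sum of all junctions covers 4 introns of Nova1. Around the 72-nt exon, reads that enter or leave it count toward this sum and reads that skip it do not, so the sum falls when the exon is skipped. On constitutive junctions, Nova1 went from 11.6 to 37.7 CPM (means of 2 libraries), a change of 1.61 ± 0.13 that was called (limma, adjusted p = 3.07e-10). Elavl2 changed by 1.56 on the same junctions, so the larger of these 2 genes depends on the measure. The authors' RPKM went from 52.3 to 148 for Nova1 and from 48.9 to 126 for Elavl2 over the same step. The constitutive sum was chosen after the data were seen. It rests on 1 of 4 introns for Nova1 and on 3 of 7 for Elavl2.

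Across all 5 lines, levels were compared by stage over 10 libraries each. Elavl3 had 7.38 to 13.2 CPM in the 10 ESC libraries, with a median of 11, then 82.4 to 205 CPM at EB8, with a median of 129, and 225 to 285 CPM at DIV7, with a median of 248. For Elavl1, Elavl2 and Elavl3 the ranges of the 3 stages did not overlap, and the share of all genes so separated is not given here. For Nova1, Nova2 and Elavl4 the ESC range lay below the others, while EB8 and DIV7 overlapped. Nova1 had 34.6 to 105 CPM at EB8 (median 59.3) and 79.8 to 139 CPM at DIV7 (median 114). Nova2 had 17.1 to 43.6 and 40.1 to 61.8 CPM (medians 26.6 and 52.3), and Elavl4 had 27.6 to 73.9 and 67.9 to 95.3 CPM (medians 48.6 and 79.9). The overlap came from the EB8 libraries of Puf60_mEx5_HOM and, for Nova1, Puf60_pEx5_HET, which reached the level of the lowest DIV7 libraries. For Nova1 the overlap is in the sum of all junctions only. On constitutive junctions, from 1 intron, Nova1 had 7.19 to 20.5 CPM in the EB8 libraries and 26.1 to 46.7 CPM in the DIV7 libraries, with no overlap. The authors' RPKM for Nova1 was 32.98 to 84.49 at EB8 and 132 to 170 at DIV7.

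**Figure D2:**
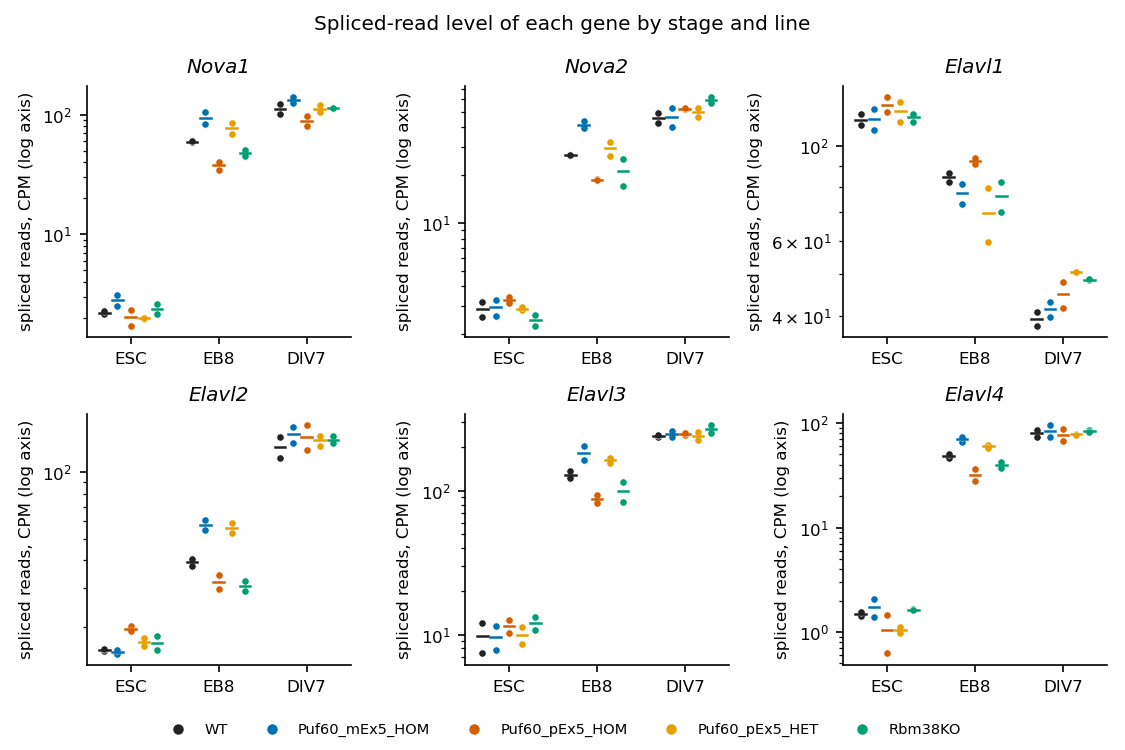
Depth-scaled spliced reads (CPM, log axis) of each gene by stage and line; each point is 1 library and each bar the mean of 2. Nova1, Nova2, Elavl3 and Elavl4 rise steeply to EB8, Elavl2 is at 15.2 to 20.3 CPM in ESC and 116 to 163 CPM at DIV7, and Elavl1 falls.

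At EB8 the lines separated in the levels of the neuronal members. The comparison with WT asks how the form of Puf60 or the loss of Rbm38 bears on the genes that mark neuronal differentiation. No member was called in any of the 12 comparisons of an edited line with WT, 72 limma tests in all, of which 21 had an unadjusted p under 0.05. The share of all genes with such an unadjusted p is not given here, so that count has no background to be read against. In ESC the share of all genes called was 0.0789% in Puf60_mEx5_HOM, 2.47% in Puf60_pEx5_HOM and 0.0359% in both Puf60_pEx5_HET and Rbm38KO. At EB8 it was 1.64%, 1.66%, 0.115% and 0.043% in the same lines, and at DIV7 0.395%, 2.57%, 0.574% and 0.301%. Below the 2-fold threshold, 7 member tests had an adjusted p under 0.05, all at EB8 in the 2 homozygous Puf60 lines. Nova1 had 83 and 105 CPM in Puf60_mEx5_HOM at EB8, 58.6 and 60 CPM in WT and 40.3 and 34.6 CPM in Puf60_pEx5_HOM. None of these 3 groups overlapped, and the share of all genes separated in this way is not given here. The changes against WT were 0.65 ± 0.14 in Puf60_mEx5_HOM (limma, adjusted p = 0.00336) and -0.65 ± 0.14 in Puf60_pEx5_HOM (limma, adjusted p = 0.00388). In the authors' deposited table, Nova1 changed by 0.69 (FDR 1.69e-05) and -0.67 (FDR 2.56e-05) on the log2 scale.

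Against WT at EB8, 4 of the 5 neuronal members had an adjusted p under 0.05 and a higher level in Puf60_mEx5_HOM, beside 11.8% of all tested genes. Besides Nova1, these were Nova2 (0.62 ± 0.15, adjusted p = 0.00798), Elavl2 (0.55 ± 0.12, adjusted p = 0.00406) and Elavl4 (0.52 ± 0.17, adjusted p = 0.0369), all from limma. Elavl3 was at 0.50 ± 0.20 with adjusted p = 0.0872 (limma). In Puf60_pEx5_HOM, 3 of the 5 had an adjusted p under 0.05 and a lower level, beside 7.57% of all tested genes. These were Nova1, Elavl4 (-0.61 ± 0.17, adjusted p = 0.0234) and Nova2 (-0.48 ± 0.15, adjusted p = 0.04995) (limma). Elavl3 was at -0.56 ± 0.20 (limma, adjusted p = 0.0849) and Elavl2 at -0.29 ± 0.12 (limma, adjusted p = 0.154). Elavl1 was at -0.13 in Puf60_mEx5_HOM and 0.13 in Puf60_pEx5_HOM, with libraries of 73.3 and 81.4, 86.5 and 82.2, and 90.8 and 93.6 CPM in Puf60_mEx5_HOM, WT and Puf60_pEx5_HOM. In the authors' deposited table Nova2 did not pass an FDR of 0.05 in either line, at 0.38 (FDR 0.234) in Puf60_mEx5_HOM and -0.37 (FDR 0.355) in Puf60_pEx5_HOM. There, Elavl2 had an FDR of 0.0117 in Puf60_mEx5_HOM and 0.646 in Puf60_pEx5_HOM, Elavl3 0.0592 and 0.051, and Elavl4 0.00674 and 0.0116. The WT libraries enter both comparisons, so the 2 sets of values are not independent. Each limma result above with an adjusted p under 0.05 rose above 0.05 under some alternative processing or with a library left out. The sign of each change stayed the same.

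Puf60_mEx5_HOM against Puf60_pEx5_HOM, which shares no control, gave the largest differences between lines. At EB8, 4 members were called higher in Puf60_mEx5_HOM, beside 6.95% of all tested genes. Elavl4 had 66.3 and 73.9 CPM against 35.9 and 27.6 CPM, a difference of 1.13 ± 0.17 (limma, adjusted p = 1.55e-05). Nova1 differed by 1.30 ± 0.14 (limma, adjusted p = 2.18e-07). Nova2 had 39.4 and 43.6 CPM against 18.9 and 18.7 CPM, a difference of 1.10 ± 0.15 (limma, adjusted p = 6.47e-06). Elavl3 had 164 and 205 CPM against 93.1 and 82.4 CPM, a difference of 1.06 ± 0.20 (limma, adjusted p = 0.000237). Elavl2 had 55 and 61 CPM against 34.3 and 29.7 CPM and differed by 0.84 ± 0.12 (limma, adjusted p = 1.18e-05), or by 0.55 on constitutive junctions. Without replicate B of Puf60_pEx5_HOM at EB8, Elavl4 (0.94) and Elavl3 (0.97) were under 2-fold, so 2 members were called, and without replicate B of Puf60_mEx5_HOM, Elavl3 (0.89) was.

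The heterozygous line and Rbm38KO fell between the homozygous Puf60 lines at EB8 in Nova1, Nova2, Elavl3 and Elavl4. Ordered by mean CPM, Nova1, Nova2, Elavl3 and Elavl4 all ran from Puf60_mEx5_HOM through Puf60_pEx5_HET, WT and Rbm38KO to Puf60_pEx5_HOM. Elavl2 had the same order with the last 2 exchanged (30.8 CPM in Rbm38KO and 32 CPM in Puf60_pEx5_HOM). Elavl1 had another order and was lowest in Puf60_pEx5_HET, at 69.7 CPM against 84.4 CPM in WT (-0.29 ± 0.11, limma, adjusted p = 0.272). Next came Rbm38KO at 76.3 CPM, also below Puf60_mEx5_HOM at 77.4 CPM. Neither Puf60_pEx5_HET nor Rbm38KO passed the test against WT in any of the 6 genes at EB8. The closest was Elavl2 in Puf60_pEx5_HET, with 59.1 and 53.2 CPM against 37.9 and 40.7 CPM in WT and a change of 0.50 ± 0.12 (limma, adjusted p = 0.088). Puf60_pEx5_HET, which carries constitutive exon 5 on 1 allele, thus had a mean on the other side of WT from Puf60_pEx5_HOM in all 5 neuronal genes.

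Markers of cell types also differed between the lines at EB8. The neuron markers had the order of the lines given for Nova1. Endoderm markers ran the opposite way in Puf60_mEx5_HOM, WT and Puf60_pEx5_HOM. Their sum was 41.2 to 108 CPM in Puf60_pEx5_HET, on both sides of the WT libraries, and 77.9 to 118 CPM in Rbm38KO. The 8 neuron markers summed to 1817 and 2060 CPM in Puf60_mEx5_HOM, 1561 and 1663 in Puf60_pEx5_HET, 1178 and 1310 in WT, 820 and 1121 in Rbm38KO and 752 and 896 in Puf60_pEx5_HOM. All 8 had a positive fitted change in Puf60_mEx5_HOM and a negative one in Puf60_pEx5_HOM, with medians of 0.76 and -0.69, and 7 of 8 were called higher in the first line against the second. Neural progenitor markers, of which 4 of 5 were measured, summed to 821 to 854 CPM in Puf60_mEx5_HOM, 714 to 801 CPM in WT and 620 to 637 CPM in Puf60_pEx5_HOM. The sum of 5 endoderm and epithelium markers was 15 to 23.4 CPM in Puf60_mEx5_HOM, 63.2 to 74.5 CPM in WT and 156 to 216 CPM in Puf60_pEx5_HOM. The sum of 5 fibroblast and smooth muscle markers was 337 to 742 CPM, 146 to 283 CPM and 74.1 to 83.1 CPM in the same lines. No marker in these 4 lists was at 0 in both libraries of a group at EB8. The part of cell composition in the differences between lines was not tested.

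At ESC and DIV7 the lines lay closer together in the levels of the neuronal members. Over all genes this did not hold for Puf60_pEx5_HOM, where 2.47% were called against WT in ESC, 1.66% at EB8 and 2.57% at DIV7. No member had an adjusted p under 0.05 against WT at ESC or DIV7. Between the 2 homozygous lines at DIV7, Nova1 differed by 0.57 ± 0.14 (limma, adjusted p = 0.0081), with 124 and 139 CPM in Puf60_mEx5_HOM against 79.8 and 97.5 CPM in Puf60_pEx5_HOM and no overlap. Beside it, 7.72% of tested genes were higher with an adjusted p under 0.05. The adjusted p of this Nova1 difference rose above 0.05 under some alternative processing or with a library left out. The 8 neuron markers had median changes between 0.03 and 0.18 in the 4 comparisons with WT at DIV7, and none of them was called. Other lists differed between the homozygous lines at DIV7. Astrocyte markers summed to 329 to 444 CPM in Puf60_mEx5_HOM and 86.1 to 204 CPM in Puf60_pEx5_HOM, and fibroblast and smooth muscle markers to 1406 to 4229 CPM and 276 to 449 CPM. Pluripotency markers summed to 14 to 14.4 CPM and 107 to 163 CPM in the same lines. Their part in the Nova1 difference was not tested. Whether the step from one stage to the next differed between an edited line and WT was tested by interaction, 8 contrasts for each member. No member was called in these 48 limma tests, of which 23 had an unadjusted p under 0.05. That count too has no share of all genes beside it. Of all tested genes, 1.36%, 4.26%, 0.0143% and 0.00717% were called for the step from ESC to EB8 in Puf60_mEx5_HOM, Puf60_pEx5_HOM, Puf60_pEx5_HET and Rbm38KO. For the step from EB8 to DIV7 the shares were 0.861%, 4.06%, 0.0359% and 0.0359%. The lowest adjusted p was for Elavl2 from ESC to EB8, where the rise in Puf60_pEx5_HOM was smaller than in WT by -0.60 ± 0.17 (limma, adjusted p = 0.0294), beside 7.69% of tested genes. On constitutive junctions that adjusted p was 0.0805.

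**Figure D3:**
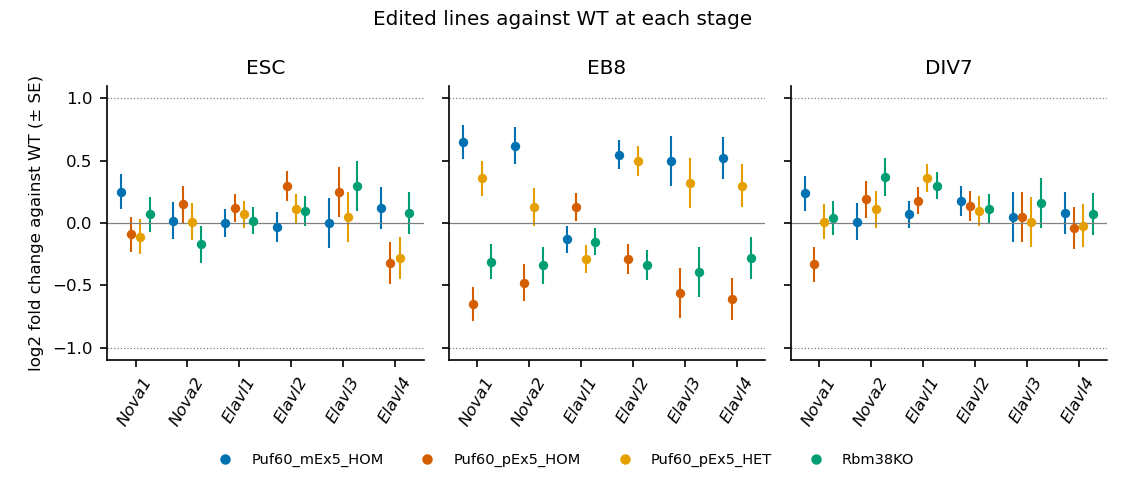
Log2 fold change of each gene in the 4 edited lines against WT at each stage, from limma on log2(CPM + 1), with bars of 1 SE and dotted lines at 2-fold. At EB8 the 5 neuronal genes lie above 0 in Puf60_mEx5_HOM (0.50 to 0.65) and below 0 in Puf60_pEx5_HOM (-0.65 to -0.29), with no point past 2-fold.

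Of the 112 splicing events of the 6 genes, 22 had a mean PSI of 5 to 95% and no library with fewer than 10 reads in at least 1 of the fits. Among them were 9 of Elavl2, 7 of Nova1, 4 of Elavl4 and 1 each of Elavl1 and Elavl3. No Nova2 event passed. Events were tested by a weighted limma fit on the log2 ratio of inclusion to exclusion reads and called where the adjusted p was below 0.05 and the PSI differed by 10 points or more.

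Exon 4 of Nova1 was included in ESC and EB8 and mostly skipped in DIV7 neurons. It had a PSI of 89.2 and 92.6% in the WT EB8 libraries, from 1300 and 1398 reads, and 9.88 and 10.1% at DIV7, from 2018 and 2471 reads. The mean fell by 80.9 points (weighted limma, adjusted p = 7.37e-17). That was the largest change in size among the 7156 cassette exons tested in this step, of which 31.2% were called. In replicate A, skipping reads went from 74 to 1655 while reads of the upstream inclusion junction went from 688 to 158. Over all lines, DIV7 libraries ranged from 7.72 to 11.7% and EB8 libraries from 77.8 to 97.3%. In ESC, 9 of 10 libraries held no skipping read, from 28 to 60 reads each. Taken as 3 reads of the total, the limit on skipping was 5 to 10.7% of the junction reads of a library. Included transcripts are counted at both junctions of the exon, so the limit on the PSI scale is higher than that. The WT step from ESC to EB8, -9.1 points, was not called (weighted limma, adjusted p = 0.2).

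The lines differed in this exon at EB8. Puf60_mEx5_HOM had a PSI of 77.8 and 81.5%, below both WT libraries, a difference of -11.2 points (weighted limma, adjusted p = 0.00244) beside 2.58% of cassette exons called in that comparison. Puf60_pEx5_HOM had 96.8 and 97.3%, above both WT libraries, a difference of 6.12 points (weighted limma, adjusted p = 0.0029) that stayed under 10 points. The order of mean PSI over the 5 lines at EB8 was the reverse of the order of mean Nova1 CPM. The call in Puf60_mEx5_HOM was lost in a fit without weights (adjusted p = 0.383), without replicate A of that group (-9.37 points) and without replicate B of WT (-9.57 points). At DIV7 the lines had mean PSI of 7.9 to 11.3%, and none was called against WT.

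Exon 6 of Elavl2 went the other way, from mostly skipped to fully included. Its PSI was 17 and 20.9% in WT ESC, from 169 and 166 reads, 67.8 and 72.8% at EB8 and 98.3 and 99% at DIV7. The groups of the 3 stages did not overlap. The steps of 51.4 points (weighted limma, adjusted p = 1.83e-09) and 28.4 points (weighted limma, adjusted p = 3.66e-11) were both called. In size the first step ranked 138 of 6206 cassette exons tested, of which 25.7% were called. Inclusion of this exon thus changed from ESC on, whereas Nova1 exon 4 was still included at EB8.

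Elavl2 exon 6 also differed most between lines. At EB8 its PSI was 87.8 and 87.4% in Puf60_mEx5_HOM, 17.3 points above WT (weighted limma, adjusted p = 0.000643). In Puf60_pEx5_HOM it was 35.6 and 40.4%, 32.3 points below WT, a difference written -32.3 with adjusted p = 7.84e-06 (weighted limma). In size that change ranked 39 of 7717 cassette exons tested, of which 6.27% were called. The call in Puf60_mEx5_HOM was lost in a fit without weights (adjusted p = 0.254). Puf60_pEx5_HET had 77.2 and 77.1% and Rbm38KO 64.8 and 64.9%, on either side of WT, and neither passed the test (weighted limma, adjusted p = 0.408 and 0.657). The 5 lines thus had the same order as for the CPM of Nova1, Elavl3 and Elavl4.

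In ESC, exon 6 of Elavl2 was at 4.65 and 5.23% in Puf60_pEx5_HOM, from 269 and 229 reads. The difference from WT was -14 points (weighted limma, adjusted p = 0.00456), beside 3.92% of cassette exons called. The other 3 lines had 15.9 to 27.4% and were not called. At this stage the level of Elavl2 itself was 20.3 and 19.2 CPM in Puf60_pEx5_HOM against 15.6 and 16 CPM in WT. The sum of the neuron markers was 301 and 307 CPM against 274 and 295 CPM. Other marker sums in Puf60_pEx5_HOM and WT ESC were 38.4 to 66.5 against 290 to 425 CPM for fibroblast and smooth muscle, 102 to 107 against 356 to 607 CPM for endoderm and epithelium, and 4560 to 4724 against 3448 to 3693 CPM for pluripotency. Their part in the exon 6 difference was not tested. The call was lost in a fit without weights (adjusted p = 0.0978), without replicate A of Puf60_pEx5_HOM (adjusted p = 0.0517) and without replicate B of WT (adjusted p = 0.0671). At DIV7 the exon was at 97% or more in all 10 libraries.

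The matching 39-nt exons of the other neuronal Elavl genes were included throughout. Elavl3 exon 6 had a PSI of 93.4 to 100% over all ESC libraries. At EB8 it was 97.6 to 99.1%, and at DIV7 97.1 to 98.7%. Elavl4 exon 6 had 87.9 to 98.4% at EB8 and 96.4 to 99.1% at DIV7, while its 6 to 32 reads in ESC libraries (66.7 to 100%) give little precision. At EB8, Elavl4 exon 6 moved in the same direction as that of Elavl2, by 4.12 points in Puf60_mEx5_HOM (weighted limma, adjusted p = 0.0068) and by -5.21 points in Puf60_pEx5_HOM (weighted limma, adjusted p = 0.028). Both are under the 10-point threshold. The exon that follows it in Elavl4 has a choice of 3′ splice sites 42 nt apart. The longer form had 39.6 to 48.8% at EB8 and 36.9 to 49.4% at DIV7 and was not called in the WT step or in any edited line.

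**Figure D4:**
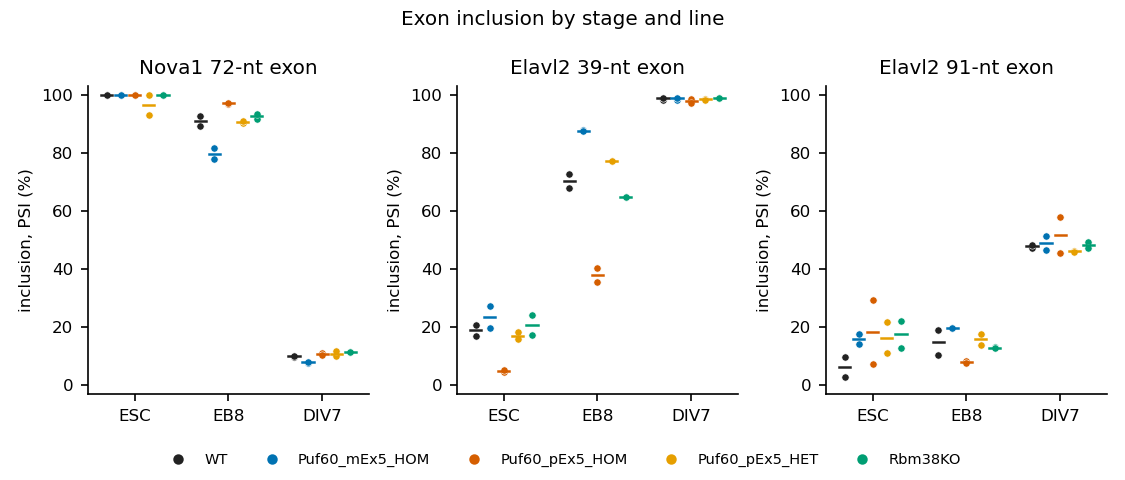
Inclusion (PSI, %) of 3 exons by stage and line; each point is 1 library and each bar the mean of 2. Nova1 exon 4 (72 nt) drops to 7.72 to 11.7% at DIV7, while Elavl2 exon 6 (39 nt) rises to 97% or more and spreads from 35.6 to 87.8% between lines at EB8.

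A second Elavl2 exon, 91 nt long at chr4:91311573-91311663 and partly coding (exon 2 of transcript Elavl2-206), was included late. Its PSI was 10.5 and 19.2% in WT EB8 and 47.4 and 48.2% in WT DIV7, a change of 33 points (weighted limma, adjusted p = 2.26e-07). The DIV7 libraries of all lines lay between 45.4 and 57.9%, above every EB8 library (7.62 to 19.8%). Lines did not pass the test against WT at EB8 or DIV7. In ESC, 5 to 22 reads per library left it untested.

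Introns gave the other 3 calls. An Elavl3 intron of 5819 nt changed by -14.1 points from WT ESC to EB8 and an Elavl2 intron of 573 nt by -11 points (weighted limma). Both introns lie just after exon 6 of their gene, so their spliced reads are reads that include that exon. They rest on 14 to 34 reads per WT ESC library. The Elavl2 call was lost without replicate A of WT ESC (-7.83 points) and without replicate B of WT EB8 (-10.5 points), and the Elavl3 call without either WT ESC replicate (-17.6 and -10.5 points) and without replicate B of WT EB8 (-12.9 points). The 7120-nt Nova1 intron at the 5′ side of exon 4 rose by 17.6 points from EB8 to DIV7 (weighted limma). Its spliced reads are those that include exon 4, so its percentage rises when the exon is skipped. Counted by comparison, 3 member events were called from WT ESC to EB8 (14.7% of all tested events), 4 from WT EB8 to DIV7 (17.7%), and 4 in the 12 comparisons of edited lines with WT. Of the latter, 1 was in ESC and 3 at EB8, where 0.904% of all events were called in Puf60_mEx5_HOM, 2.71% in Puf60_pEx5_HOM, 0.0119% in Puf60_pEx5_HET and 0.00398% in Rbm38KO. The shares were 0.00515%, 1.78%, 0.0155% and 0% in ESC and 0.109%, 1.73%, 0.021% and 0% at DIV7.

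The authors' deposited table of splicing calls lists 64 of the member events. It marks 11 as significant in Puf60_pEx5_HOM against WT at EB8, 5 in Puf60_mEx5_HOM and none in any line at DIV7. The share of all listed events that the authors mark is not given here, so these counts have no background to be read against. Exon 4 of Nova1 and exon 6 of Elavl2 are marked in both homozygous lines at EB8, and exon 6 of Elavl2 also in Puf60_pEx5_HET at EB8 and in Puf60_pEx5_HOM at ESC.

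Genes with the profile most like each member were taken as the 3 with the highest Pearson r of log2(CPM + 1) over the 15 group means, among 11010 genes with a range of at least 1 log2 unit. All values are descriptions, since the groups share 3 stages. For Nova1 these were Cacna2d3, Akap6 and Zfp821 (r = 0.999 each), for Nova2 Vps37d (0.999), Nol4l and Hcn4 (0.998 each). For Elavl3 they were Igsf21 and Chrnb2 (0.999 each) and Clvs1 (0.998), and for Elavl4 Cacna2d3, Add2 and Srrm3 (0.999 each). Elavl2 was nearest to Usp22, Ttc9b and Klhl7 (0.997 each). Elavl1 was nearest to Alyref (0.994), Nup50 (0.992) and Nudt21 (0.991). Among the members, Nova1 and Elavl4 had r = 0.998 and Elavl1 and Elavl2 had r = -0.975.

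Genes known as targets of these proteins were followed from 2 lists. Both lists were chosen with earlier results of these data known. The shares of all genes beside them are given for scale and are no test of targets as a class. Of 15 Nova target genes, 10 were called higher and none lower from WT ESC to EB8, beside 21.7% of all tested genes called higher, with a median change of 2.02 against 0.03 over all genes. From EB8 to DIV7, 8 were called higher, beside 17.6% of all tested genes (median 1.29 against 0.02). The largest were Dcc, a netrin receptor gene, at 5.62 ± 0.14 in the first step (49.2 CPM at EB8; limma, adjusted p = 6.91e-19) and Glra2, a glycine receptor subunit gene, at 4.19 ± 0.18 in the second (78.6 CPM at DIV7; limma, adjusted p = 5.99e-15). Against WT, 1 of the 15 was called at EB8, Glra2 in Puf60_mEx5_HOM at 1.17 ± 0.18 (limma, adjusted p = 0.000116), and none at DIV7. In Puf60_mEx5_HOM against Puf60_pEx5_HOM at EB8, 6 of 15 were called higher, beside 6.95% of all tested genes. Of 12 Elavl target genes, 10 were tested. In the first step 4 were called higher and 2 lower, beside 21.7% and 18.2% of all tested genes. In the second step 2 were called higher and 2 lower, near the background of 17.6% and 12.7%. Gap43, a growth cone gene, changed by 3.85 ± 0.17 and then by 1.93 ± 0.17, and the cyclin gene Ccnd1 by -1.92 ± 0.26 in the second step (limma, adjusted p = 1.91e-14, 2.22e-09 and 2.35e-06). At DIV7, Fos, an immediate early gene, was called higher in Puf60_pEx5_HOM at 2.69 ± 0.73 (limma, adjusted p = 0.0194), with 114 ± 97.4 CPM (SD, n = 2).

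All tested cassette exons of the Nova target genes were counted, and they were not chosen as exons on which Nova acts. As the gene list was chosen with earlier results known, the shares of all cassette exons are again for scale only. In Puf60_mEx5_HOM against WT at EB8, 10 of 40 were called (25%), 5 higher and 5 lower, beside 2.58% of all cassette exons. In Puf60_pEx5_HOM at EB8, 11 of 40 were called (27.5%), 7 higher and 4 lower, beside 6.27%. The exons named here were picked after their values were seen, from the 3 largest called changes. The 95-nt exon of Neo1, a netrin and RGM receptor gene, at chr9:58884470-58884564, had 75.2 ± 1.53% in WT at EB8, 44 ± 4.21% in Puf60_mEx5_HOM (SD, n = 2; weighted limma, adjusted p = 2.51e-05) and 8.49 ± 2.04% in WT at DIV7. A 273-nt exon of the axon guidance receptor gene Robo2 at chr16:73898912-73899184 had 39.4 ± 1.29% in WT and 73.4 ± 2.84% in Puf60_pEx5_HOM at EB8 (SD, n = 2; weighted limma, adjusted p = 0.00242). At DIV7, 6 of 43 tested exons of the Nova target genes were called in Puf60_pEx5_HOM (14%, beside 3.85%) and none in the other 3 lines. In WT, 18 of 26 were called from ESC to EB8 (69.2%, beside 25.7%) and 27 of 40 from EB8 to DIV7 (67.5%, beside 31.2%). The Elavl target genes had 9 tested exons at EB8, of which none was called in Puf60_mEx5_HOM and 1, in Vegfa, in Puf60_pEx5_HOM. These counts are not independent of each other, since several exons share a gene and Ank3 is on both lists.

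Among 23 tested genes of a list of 25 other splicing regulators, 12 were called higher and 1 lower from WT ESC to EB8 (median 1.58), beside 21.7% and 18.2% of all tested genes. This list was also chosen with earlier results of these data known. Celf3 (6.73 ± 0.15), Srrm4 (4.61 ± 0.15), a gene for an activator of microexons, and Rbfox1 (4.53 ± 0.14) changed most (limma, adjusted p = 5.78e-20, 3.52e-17 and 1.26e-17). From EB8 to DIV7, 6 were called higher and 2 lower (median -0.06), beside 17.6% and 12.7% of all tested genes, led by Celf6 at 2.71 ± 0.12 (limma, adjusted p = 1.18e-14). At EB8, 1 was called higher in Puf60_mEx5_HOM and 3 lower in Puf60_pEx5_HOM against WT, beside 1.64% and 1.66% of all tested genes called in either direction, and none was called in any edited line at DIV7.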

How the data were processed

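RNA-seq of 30 libraries was used as deposited; Salmon 0.14.1, edgeR and mm10 are named in the submitters' processing notes. The authors deposited RPKM per gene as 1 value per group, with log2 fold changes and p-values or FDR of edited lines against WT, per the file headers. The percent spliced in (PSI) of each event and library, with its quality string of junction reads, was deposited as vast-tools output, as were the authors' TRUE or FALSE calls, per the file headers; how replicates were combined and whether reads were counted by strand is not given in the sources used here. Here, exon-exon junction reads of intron events were summed per gene, scaled by median-of-ratios factors and fitted with limma 3.58.1 (trend, robust; R 4.3.3) on log2(CPM + 1) for the 13938 genes that reached 1 CPM in 2 libraries or more, over 15 group means. Splicing was fitted with limma on log2((inclusion + 1)/(exclusion + 1)), weighted by counting and between-replicate variance. Both fits were tested on simulated data. Limits on counts of 0 (3 reads of the total) cover counting error only. The named genes are the 6 members, the 3 nearest profiles of each, up to 3 called genes of each list in the WT steps and in edited lines at DIV7, and called or most variable events. Members and lists were chosen with earlier results of these data known. Alternatives covered scaling, pseudocount, filters, voom weights, unweighted fits, a replicate block and leaving out each library; the constitutive-junction sum was added after seeing the data.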

Additional observations from a re-analysis of the deposited data

Results flagged for a closer look

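The rise of Elavl2 from ESC to EB8 was smaller in Puf60_pEx5_HOM than in WT, by -0.60 ± 0.17 on the log2(CPM + 1) scale, the one member step of 48 tested whose interaction with the line had an adjusted p under 0.05 (limma, adjusted p = 0.0294). Elavl2 went from 15.6 and 16 to 37.9 and 40.7 CPM in WT and from 20.3 and 19.2 to 34.3 and 29.7 CPM in Puf60_pEx5_HOM. Over 15 alternatives the difference lay between -0.70 and -0.49, with adjusted p from 0.0277 to 0.127. The adjusted p was above 0.05 with voom weights (0.0837) and without any 1 of 6 of the 8 libraries. The inclusion of its 39-nt exon, whose junctions enter this sum, differed between the same groups. On constitutive junctions the difference was -0.52 (adjusted p = 0.0805), and on that measure the Nova1 step had an adjusted p of 0.0284.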

How the results depend on the processing

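Every count of called members or events was recomputed under each alternative. Members called from WT ESC to EB8 numbered 4 to 5, from WT EB8 to DIV7 2 to 3, and against WT in edited lines 0 under all 37 alternatives. A call needs a 2-fold change, so these counts leave out the smaller changes. Each member's adjusted p under 0.05 against WT at EB8 rose above 0.05 under some alternative. Leaving out 1 library gave 2 to 4 members called between the homozygous lines (4 with all), 0 to 1 member whose step differed (0 with all; Elavl3 at -1.13 without replicate A of WT ESC), 1 to 3 events called from WT ESC to EB8 (3 with all), 4 from EB8 to DIV7, and 3 to 5 in edited lines (4 with all). Without weights 1 event was called in edited lines. Of 573 alternatives for single genes and events, 554 kept their side of the threshold, 16 fell below it and 3 passed it. None of the called values reversed. Direction was compared for called values only in these counts, so the 554 include uncalled values that changed sign. One was Elavl1 from WT ESC to EB8, at -0.45 and at 0.04 under an alternative. Among uncalled member tests, 84 of 1721 alternative values had another sign. Deviations by replicate letter were correlated over 105 pairs of groups, within and across stages (r -0.26 to 0.62, median 0.02, 27 over 0.1). Pairs within a stage were not looked at apart, so whether the letters pair libraries within a stage was not tested. For levels, the replicate block takes the letter as the same effect at all stages. With the replicate block, 5 and 2 members were called in the 2 WT steps, 0 against WT, 4 between homozygous lines and 0 in the interactions, and 3, 4 and 4 events. Scaling to total reads moved the median of all genes by 0.42 from ESC to EB8 and by -0.11 from EB8 to DIV7. Depth in ESC was low for some events, with 27 to 60 reads per library over Nova1 exon 4.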

Other observations

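Among the 12 member exons compared with GENCODE M21, 3 short ones have no annotated exon with the same ends, and these had a low PSI. An 83-nt Nova2 exon at chr7:18949515-18949597 was at 0% in all 10 ESC libraries (19 to 36 reads), 0 to 1.5% at EB8 and 1.14 to 4.4% at DIV7 (359 to 561 reads). A 47-nt Elavl4 exon at chr4:110274149-110274195 was at 0 to 4.17% at EB8 and 2.22 to 11.5% at DIV7, from 17 to 55 reads. Its upstream junction had 0 reads in every library, and all its inclusion reads were on the downstream junction. These reads therefore do not show splicing into the Elavl4 exon from upstream. A 58-nt Elavl1 exon at chr8:4312557-4312614 had a median of 7.2% in ESC, 3.77% at EB8 and 5.66% at DIV7, from 141 to 599 reads per library. The Nova2 exon was not tested. The other 2 were tested where their mean PSI reached 5%, and neither was called.

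Exons 2 and 3 of Nova2 were mostly included. The 144-nt exon 2 had 90 to 100% in ESC (32 to 53 reads), 94.2 to 100% at EB8 and 96.0 to 99.4% at DIV7. The 167-nt exon 3 had 97.5 to 100%, 97.7 to 100% and 98.2 to 99.6%. The authors' calls mark both exons in Puf60_pEx5_HOM against WT at EB8. Mean PSI there was 95.8% in Puf60_pEx5_HOM and 99.2% in WT for exon 2, and 98.1% and 99.2% for exon 3. Neither exon was tested here.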
